A study of Xenopus laevis with 6 samples.

Results

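In the hind limb bud of the tadpole of the African clawed frog Xenopus laevis, 132 gene IDs had a level that fell by at least 2-fold at each step outward along the limb. They were chosen from the measured values themselves. A member had to carry a usable gene name, reach a mean of at least 3 CPM in proximal (CPM, fragments of the gene per 1000000 fragments assigned to any gene), have a distal mean of at most 50% of the medial mean, and have a medial mean of at most 50% of the proximal mean. The 132 members were 2.37% of the 5574 gene IDs that could be chosen by name and a small part of the 51061 gene IDs in the count table. They carry 131 names, because nfix.L stands under 2 gene IDs whose exons overlap, and 117 symbols once the suffix of the gene copy is removed. A further 34 gene IDs met the same 3 thresholds but had only placeholder names, and the mirrored rule, rising outward, held for 68 named gene IDs. Names come from the authors' deposited table of their own calls, so a gene that they called in no comparison could not be a member.

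The study measured RNA of wild type tadpoles at stage 51, with no treatment, by paired-end RNA sequencing. The hind limb was divided into a distal, a medial and a proximal segment, and each segment was sampled as 2 biological replicate pools of 30 hind limbs, called pool 1 and pool 2 here. Where 2 levels are given for a segment, pool 1 comes before pool 2. Each of the 6 libraries is thus a mixture of many limbs and of every cell type in the segment, so fewer cells of a type and less RNA per cell cannot be told apart. Assigned fragments numbered between 10815041 and 35479915 per library, and 75.7% to 78.2% of fragments were assigned. As a check of the distal label, hoxa13.L, a Hox gene of the future foot, had 219 and 211 CPM in distal, 11.3 and 5.06 CPM in medial and 13.5 and 11.3 CPM in proximal. pitx1.L, the homeobox gene that marks hind limbs, had 209 and 206 CPM in distal, 318 and 351 CPM in medial and 295 and 312 CPM in proximal. Neither gene checks which of the other segments is medial and which is proximal. Xenopus laevis is an allotetraploid, so many genes exist as homeologous copies on a long (L) and a short (S) set of chromosomes.

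Limb buds are patterned along the axis from body wall to tip by opposing signals. Retinoic acid from the body wall side favours proximal fates marked by Meis homeobox genes, fibroblast growth factors from the tip oppose it, and enzymes of the Cyp26 family clear retinoic acid from the distal mesenchyme. Iroquois (Irx) genes encode homeobox transcription factors of the same TALE superclass as Meis, and in mice Irx3 and Irx5 are needed for proximal and anterior parts of the hind limb skeleton.

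Together the 132 members held 328 and 289 CPM in the distal pools, 1263 and 1205 CPM in the medial pools, and 4021 and 4379 CPM in the proximal pools. The median member had a distal level that was 7.23% of its proximal level, a distal level that was 27.7% of its medial level, and a medial level that was 33.6% of its proximal level. In the distal segment 72 members lay under a mean of 1 CPM, whereas in the proximal segment 71 reached 10 CPM and 25 reached 50 CPM. The median edgeR log2 fold change was -3.85 for distal over proximal, with quartiles of -5.33 and -3.10. It was -1.96 for distal over medial and -1.52 for medial over proximal, and it was -0.003 over all genes tested for distal over proximal. These differences were used to choose the members and are given as a description.

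All 132 members passed the filter on low counts. With edgeR's quasi-likelihood test and Benjamini-Hochberg adjustment over 27007 genes, 130 members were called lower in distal than in proximal, where 15.9% of all genes tested were. The corresponding counts were 124 members for distal against medial, with 12.9% of all genes, and 124 members for medial against proximal, with 4.88% of all genes. The rule used these contrasts, so nothing is read from the difference to the background. Both steps were called for 120 members, and neither step for apoe.L, ouro1.S, ctsh.L and rn7sk. The authors' deposited table lists all 132 members between distal and proximal, 120 between distal and medial and 117 between medial and proximal.

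**Figure D1:**
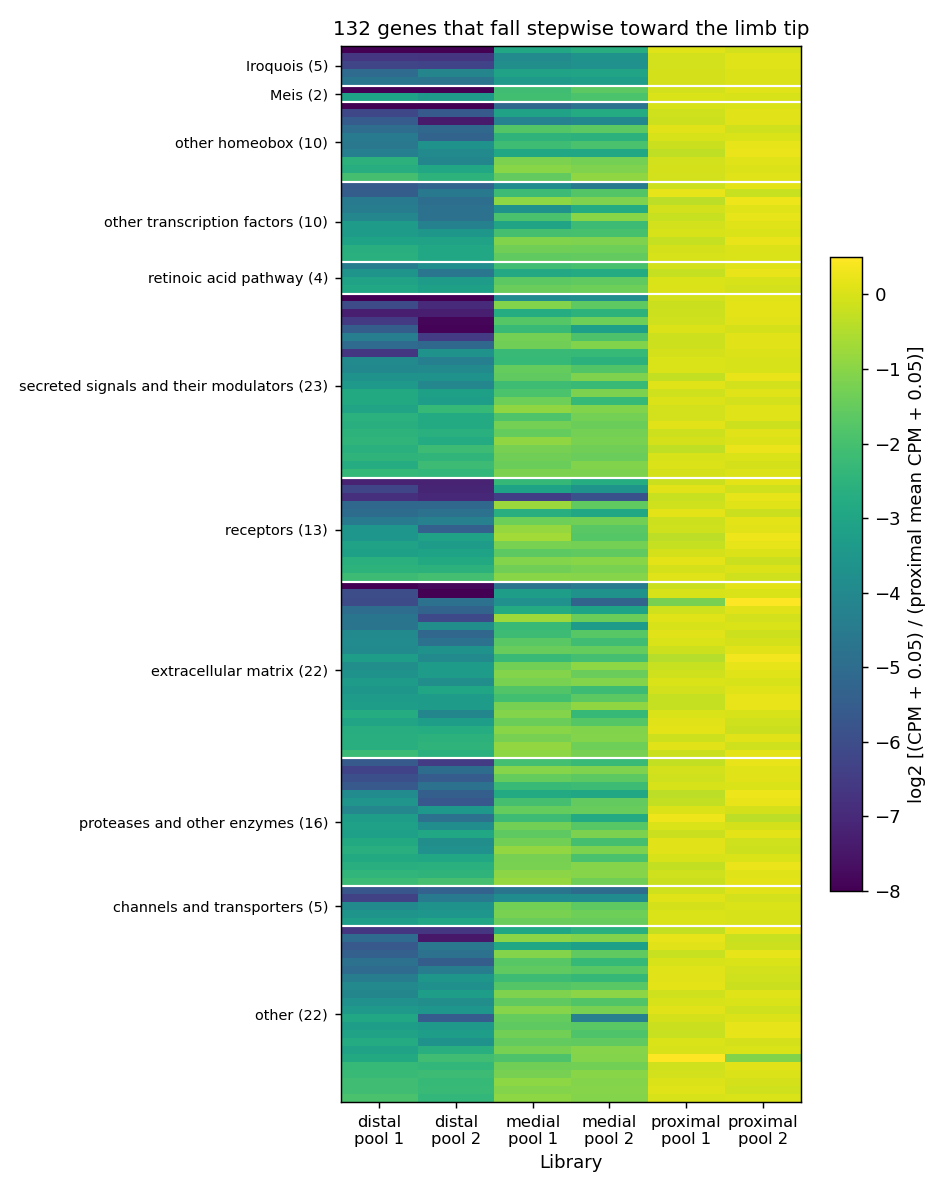
Level of each of the 132 members (rows, grouped by role, with the number of members in brackets) in each of the 6 libraries (columns), as log2 of the level relative to the gene's proximal mean, with 0.05 CPM added. Both distal columns are darkest, the medial columns lie between, and the proximal columns sit near 0; rows where the pools of 1 segment differ, such as coch.L, ouro1.S and rn7sk, stand out as uneven colours.

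Transcription factors made up 29 of the 132 members, 17 of them homeobox genes. The Iroquois genes were among the most abundant. irx3.S (chromosome 4S, 24044475 to 24048298, minus strand, 4 exons listed; positions are those of the deposited count table, whose build is not given in the sources used here) had 1.99 and 1.91 CPM in distal, 11 and 11.7 CPM in medial and 146 and 162 CPM in proximal. The pools of a segment lay close together and no segment overlapped another, with a log2 fold change of -6.36 (SE 0.13) for distal over proximal, of which -3.71 lay on the inner step, medial over proximal. Its copy irx3.L showed the same order, with 1.95 and 1.91 CPM in distal, 4.77 and 5.44 CPM in medial and 49.9 and 53.8 CPM in proximal.

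irx5, which lies in the same Iroquois cluster as irx3 in vertebrates, was close to absent from the tip. irx5.S had 0.823 and 0.779 CPM in distal, 5.72 and 6.81 CPM in medial and 83.2 and 92.9 CPM in proximal. irx5.L was represented by a single fragment in the 2 distal libraries together, with 0 and 0.0709 CPM in distal, 5.02 and 5.8 CPM in medial and 40.3 and 35.7 CPM in proximal. For irx5.L the proximal libraries held 1367 times as many fragments as the distal ones after scaling by library size, with a 95% interval of 245 to 54037 that covers counting error only. irx1.L was less abundant, with 0.13 and 0.283 CPM in distal, 0.632 and 0.667 CPM in medial and 5.64 and 6.06 CPM in proximal, and it kept the same order without overlap. Of the 5 Iroquois members, 4 had the larger log2 fold change on the inner step, and irx5.L had it on the outer step.

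Meis genes encode cofactors of Hox proteins and mark the upper limb segment in other vertebrates. meis2.S (chromosome 8S, 1803907 to 1900953, minus strand, 14 exons listed) had 0.0867 and 0.213 CPM in distal, 21.1 and 29.3 CPM in medial and 85.7 and 97.1 CPM in proximal. It was thus abundant in the medial segment and nearly missing from both distal pools, with a log2 fold change of -7.60 on the outer step against -1.82 on the inner step, a wider gap between steps than in any other member. meis3.S had 3.73 and 2.91 CPM in distal, 7.48 and 8.57 CPM in medial and 32.2 and 31.8 CPM in proximal, and its steps of -1.36 and -1.95 were more even.

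Other homeobox members had both steep and shallow gradients. gsc.S, the S copy of goosecoid, which in frog embryos is best known from the Spemann organizer, had 0.0867 and 0.0709 CPM in distal, 1.51 and 2.0 CPM in medial and 54.6 and 56.5 CPM in proximal. Only 3 fragments were counted in the distal libraries, and the scaled count ratio of proximal over distal was 695 (95% interval 237 to 3371, counting error only). Six2, a homeobox factor of mesenchyme and kidney progenitors, was a member through both copies: six2.L had 1.82 and 0.992 CPM in distal, 7.3 and 7.13 CPM in medial and 40.9 and 41.5 CPM in proximal, and six2.S had 0.39 and 0.0709 CPM in distal, 1.02 and 1.19 CPM in medial and 18.4 and 22 CPM in proximal. In six2.L the steps were nearly equal, at -2.39 on the outer and -2.47 on the inner step, whereas in six2.S the inner step of -4.15 was the larger one.

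isl1.L, a LIM homeobox gene needed in mice to start hind limb outgrowth, had 5.07 and 3.61 CPM in distal, 7.09 and 10.8 CPM in medial and 19.2 and 21.8 CPM in proximal, and its steps of -1.12 and -1.16 were among the most alike. Hox genes entered only through the HoxB cluster, with hoxb3.L at 0.13 and 0.213 CPM in distal, 1.44 and 1.83 CPM in medial and 11.7 and 13.8 CPM in proximal and hoxb7.L at 0.26 and 0.354 CPM in distal, 0.772 and 0.773 CPM in medial and 4.99 and 7.38 CPM in proximal. alx1.S and mkx.S, an aristaless-like gene and the tendon regulator Mohawk, completed the homeobox members at low levels, below 5 CPM in every library.

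Among the remaining transcription factors, coe3l.L, a member of the early B cell factor family, was the most abundant, with 4.55 and 4.04 CPM in distal, 11.3 and 11.7 CPM in medial and 45.4 and 46.4 CPM in proximal. Its relative ebf2 qualified in both copies, and ebf2.S had 1.6 and 0.779 CPM in distal, 1.93 and 3.51 CPM in medial and 15.1 and 17.1 CPM in proximal. tbx20.L, a T-box gene known from the heart, had 0.26 and 0.354 CPM in distal, 0.983 and 0.632 CPM in medial and 13.5 and 16.7 CPM in proximal, and most of its log2 fold change of -5.73 (SE 0.29) lay on the inner step (-4.18). glis3.L, hand1.L, msc.L (musculin, a repressor in muscle precursors), nfix.S and both gene IDs of nfix.L showed the same order at proximal means under 12 CPM. Because the exons of the 2 nfix.L IDs overlap, and the counting left out fragments shared by several genes, neither value is a full measure of the gene.

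**Figure D2:**
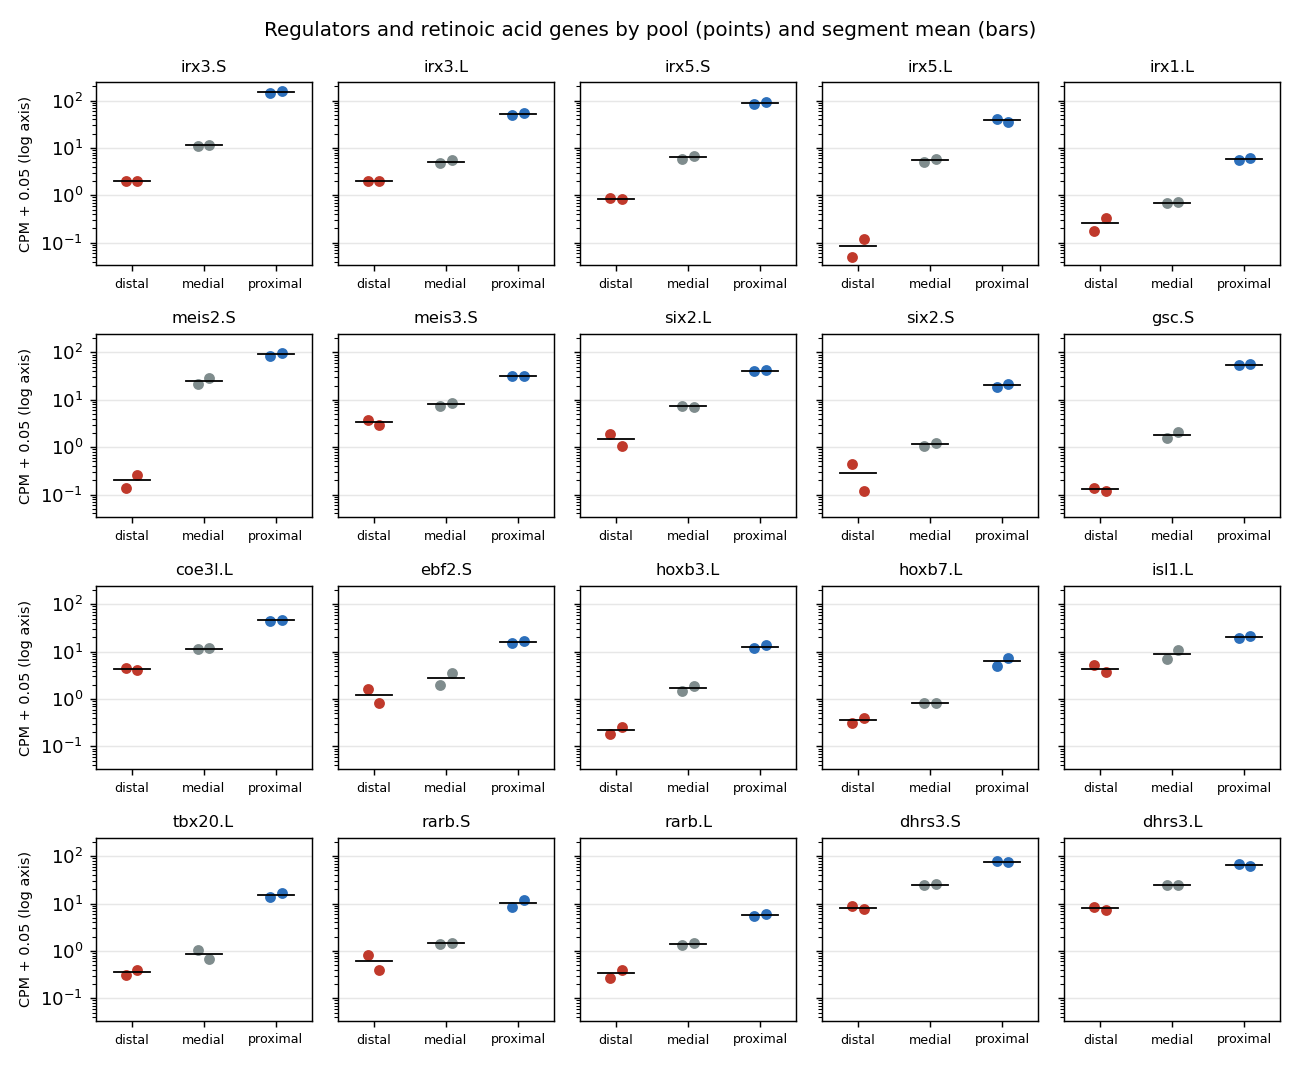
Level of 20 members (transcription factors and retinoic acid genes) in each pool, on a log axis of CPM with 0.05 added, for the distal (red), medial (grey) and proximal (blue) segments; bars are means of the 2 pools. Every panel descends outward without overlap between segments, which the choice of members largely sets. The distal means of irx5.L and gsc.S are the lowest of the 20.

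Retinoic acid was represented by its receptor gene rarb, itself a classical target of the pathway, and by dhrs3, an enzyme that reduces retinaldehyde back to retinol. rarb.S had 0.78 and 0.354 CPM in distal, 1.33 and 1.44 CPM in medial and 8.41 and 11.8 CPM in proximal, and rarb.L had 0.217 and 0.354 CPM in distal, 1.3 and 1.4 CPM in medial and 5.36 and 6.09 CPM in proximal. Both copies of dhrs3 had almost the same profile, with 8.8 and 7.58 CPM in distal, 24.4 and 25.4 CPM in medial and 77.5 and 75.1 CPM in proximal for dhrs3.S and 8.54 and 7.23 CPM in distal, 24.3 and 25 CPM in medial and 68.7 and 62.9 CPM in proximal for dhrs3.L. None of the 4 overlapped between segments, which held for 7.24% of all genes tested and was largely set by the choice of members.

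Secreted signals and their modulators numbered 23. Pkdcc.2, related to a secreted kinase that phosphorylates extracellular proteins and is needed for limb bone growth in mice, was among the most abundant members through both copies. pkdcc.2.S (chromosome 5S, 18927866 to 18973850, plus strand, 7 exons listed) had 0.39 and 0.85 CPM in distal, 18.3 and 19.5 CPM in medial and 261 and 291 CPM in proximal. pkdcc.2.L had 0.91 and 0.921 CPM in distal, 22.7 and 26.4 CPM in medial and 135 and 166 CPM in proximal. The segments were far apart for both, with log2 fold changes of -8.98 (SE 0.19) and -7.43 (SE 0.17) for distal over proximal.

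Members of the Wnt and BMP pathways included ligands and inhibitors. sfrp5.L, a secreted Wnt inhibitor, had 0.433 and 0.142 CPM in distal, 13.5 and 17.1 CPM in medial and 41.1 and 48.7 CPM in proximal, so its drop lay mostly on the outer step (-5.66, against -1.52 on the inner step). gdf5.S, a BMP family ligand of joint formation, had 0.78 and 0.709 CPM in distal, 10.6 and 12.4 CPM in medial and 24.3 and 29.3 CPM in proximal. wnt9a.L, also a joint gene, had 3.03 and 2.41 CPM in distal, 8.99 and 7.2 CPM in medial and 16.3 and 17.3 CPM in proximal. Further members of this kind were sfrp1.L, shisa3.S, the BMP antagonist gene nog2.L and both copies of smoc1, which encodes a matricellular BMP modulator; smoc1.L was abundant even at the tip, with 26.1 and 25.1 CPM in distal, 57.5 and 58.1 CPM in medial and 127 and 136 CPM in proximal.

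Growth factors, guidance cues and further secreted products covered a wide range of levels. hgf.L, whose product draws muscle precursors into the limb in mice, had 1.04 and 0.638 CPM in distal, 2.56 and 2.35 CPM in medial and 12 and 10.8 CPM in proximal. ptn.L (pleiotrophin) was represented by a single distal fragment and had 0.0433 and 0 CPM in distal, 2.91 and 1.97 CPM in medial and 5.46 and 6.88 CPM in proximal. The netrin gene ntn1.S had 3.99 and 4.18 CPM in distal, 23.3 and 18.9 CPM in medial and 66.9 and 66.5 CPM in proximal, and its exons overlap another gene ID. fgf7.S, gdnf.S, ccl21.L and c1qtnf2.L had at most 0.354 CPM in each distal pool. ecrg4.L, which encodes a secreted peptide precursor, had 14 and 12.5 CPM in distal, 36.6 and 33.6 CPM in medial and 96.3 and 80.3 CPM in proximal, and per unit of gene length it had the highest proximal level of the secreted members, at 109.7 TPM (transcripts per 1000000, computed with the deposited gene lengths).

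Receptors numbered 13, and 11 of them had the larger log2 fold change on the outer step. ror1.L, a receptor-like kinase of Wnt5a signalling, had 6.11 and 6.87 CPM in distal, 53.1 and 55.4 CPM in medial and 123 and 150.3 CPM in proximal, and ror1.S followed with 3.21 and 2.76 CPM in distal, 12.1 and 11.4 CPM in medial and 23.6 and 31.8 CPM in proximal.

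fshr.L, the receptor gene of follicle-stimulating hormone, had no fragment in either distal library, 1.37 and 1.02 CPM in the medial pools and 6.29 and 8.0 CPM in the proximal pools. It was at least 33.6-fold lower in distal than in proximal, taking a floor of 3 counts in the shallower distal library. gfra3.L, a receptor of the GDNF family that is also a Schwann cell marker, had 0.563 and 0.567 CPM in distal, 12.6 and 7.2 CPM in medial and 20.2 and 23 CPM in proximal. Receptors for serotonin (htr4.L), glutamate (grik4.L, grik5-like.1.L), sphingosine-1-phosphate (s1pr5.L) and endothelin (ednrb2.S) completed the group at proximal means of at most 24.2 CPM, together with lrfn4.L, lrrtm1.L and pdgfrl.S.

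Extracellular matrix genes and their modifiers numbered 22. spock3.S (testican, a proteoglycan; chromosome 1S, 39646984 to 39771811, plus strand, 10 exons listed) had the highest level of all members, with 28.9 and 34.9 CPM in distal, 159 and 155 CPM in medial and 405 and 485 CPM in proximal. It was also highest per unit of length, at 144 TPM in proximal, ahead of irx3.S at 130 TPM and the lysosomal protease gene ctsl.L at 112 TPM. The matrilin gene matn4 qualified in both copies, and matn4.S had 11.1 and 10.7 CPM in distal, 44.6 and 55.7 CPM in medial and 90.0 and 122 CPM in proximal. plod2.L, a collagen lysyl hydroxylase, had 14.6 and 15.5 CPM in distal, 38.5 and 42.6 CPM in medial and 82.1 and 98.9 CPM in proximal.

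Steeper gradients were found for a few matrix genes. igsf10.S, a large secreted immunoglobulin-domain protein, had 0 and 0.142 CPM in distal, 1.58 and 1.83 CPM in medial and 38.3 and 48.1 CPM in proximal. Its distal libraries held 2 fragments in all, and the scaled count ratio of proximal over distal was 852 (95% interval 236 to 7043, counting error only). col21a1.L, a fibril-associated collagen chain, had 0.303 and 0 CPM in distal, 2.32 and 1.79 CPM in medial and 22.4 and 22.7 CPM in proximal. ogn.L (osteoglycin) had 1.99 and 0.709 CPM in distal, 31.1 and 19.8 CPM in medial and 55.3 and 49.6 CPM in proximal, with most of its difference on the outer step (-4.21, against -0.99 on the inner step). Both copies of thbs2 (thrombospondin), fbln5.L, spon1.S, crispld2.L and mamdc2.L had proximal means between 21.4 and 54.0 CPM, and the order distal, medial, proximal held in each pool.

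Proteases and other enzymes numbered 16. ctsl.L and ctsh.L, both lysosomal cathepsins, are neighbours on chromosome 3L with 2.83 kb between them and no gene ID in the gap. ctsl.L had 14.4 and 6.87 CPM in distal, 49.6 and 39.6 CPM in medial and 99.2 and 81.8 CPM in proximal. ctsh.L had 4.12 and 1.35 CPM in distal, 8.88 and 5.72 CPM in medial and 48.3 and 31.5 CPM in proximal. In both genes pool 1 was higher than pool 2 in every segment. The metalloproteinase gene mmp23b qualified in both copies, and mmp23b.S had 1.13 and 1.98 CPM in distal, 12.2 and 12.7 CPM in medial and 57.2 and 58.7 CPM in proximal. prss12.L, which encodes the serine protease neurotrypsin, had 0.693 and 0.921 CPM in distal, 15.7 and 14.3 CPM in medial and 41.4 and 48.2 CPM in proximal, with the larger part of its difference on the outer step (-4.37).

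The 5 channel and transporter members and the 22 members without a shared role were mostly at low levels. slc37a2.S, a sugar-phosphate transporter gene, was the most abundant of the channels and transporters, with 4.12 and 4.89 CPM in distal, 14.5 and 14.2 CPM in medial and 39.7 and 39 CPM in proximal. slc6a3.S, the dopamine transporter gene, had 0.0433 and 0.0709 CPM in distal, 0.14 and 0.105 CPM in medial and 4.44 and 5.27 CPM in proximal, and 2 distal fragments in all. ankrd55.L had no distal fragment and was at least 23.3-fold lower in distal than in proximal, where it had 4.07 and 5.83 CPM. bmf.L (a BH3-only cell death regulator) had 13.3 and 12.7 CPM in distal, 26.1 and 26.5 CPM in medial and 60.2 and 71 CPM in proximal and lix1.S had 4.16 and 3.83 CPM in distal, 18.1 and 15.6 CPM in medial and 53.8 and 55.1 CPM in proximal, both without overlap. The small nuclear RNA gene rn7sk, the only member without a copy suffix, had 0.607 and 1.06 CPM in distal, 1.23 and 2.18 CPM in medial and 7.21 and 2.17 CPM in proximal, so that proximal pool 2 lay just below medial pool 2.

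The size of the outer and the inner step differed among members. The outer log2 fold change, distal over medial, was the larger for 91 members and the inner one, medial over proximal, for 41. Both steps share the medial pools, so a high or low medial value moves them in opposite directions. Among the 29 transcription factors the inner step was larger for 16, with medians of -2.14 on the outer and -2.10 on the inner step. Among the 103 other members it was larger for 25, with medians of -1.93 on the outer and -1.47 on the inner step. These groups were formed by hand from the known members and their difference was not tested.

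**Figure D3:**
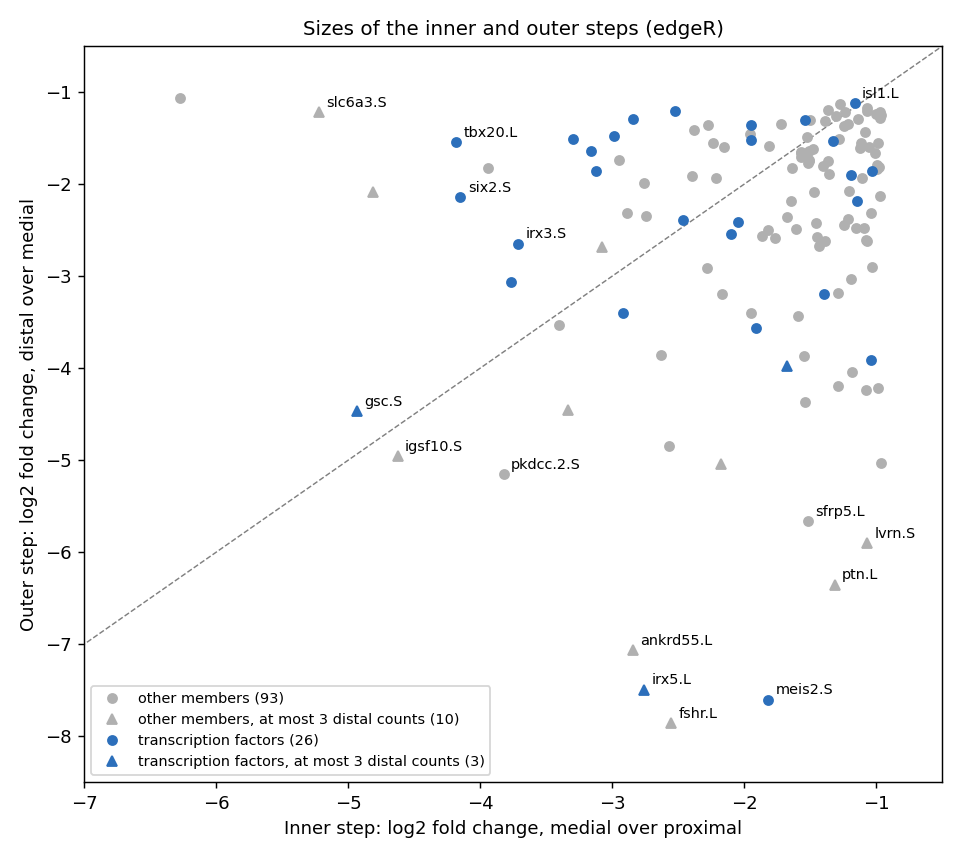
Outer step (vertical axis, log2 fold change of distal over medial) against inner step (horizontal axis, log2 fold change of medial over proximal) for the 132 members; blue marks transcription factors, triangles mark members with at most 3 distal counts, and the dashed line marks equal steps. meis2.S, fshr.L and irx5.L lie far below the line, slc6a3.S and tbx20.L far above it, and the thresholds of the rule cut the cloud off near -1 on both axes.

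The steps were most alike in rn7sk, isl1.L, pde1a.L, smoc1.S, pappa2.L, lrfn4.L, six2.L and gzmh.S. Among the members in which they differed most were meis2.S, fshr.L, ptn.L, lvrn.S, irx5.L, ankrd55.L and sfrp5.L, each with the larger outer step. In fshr.L, ptn.L, lvrn.S, irx5.L and ankrd55.L the distal libraries held at most 1 fragment, so the fitted size of the outer step depends on the prior count used in the fit. Altogether 2 members had no distal fragment and 11 had 1 to 3.

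The thresholds of the rule took means and did not use the agreement between pools directly. A member also needed a name, thus a call by the authors, and such a call depends on that agreement. Both medial pools lay below both proximal pools in 131 members, as they did in 28.3% of all genes tested, and both distal pools lay below both medial pools in 130 members, against 22.6% of all genes. Both held in 129 members, against 7.24% of all genes, and the exceptions were ouro1.S, rn7sk and coch.L. Since the means had to differ by 2-fold and a name required a call, these counts are set by the choice of members to a large extent. A halving at both steps in every combination of pools held for 73 members, against 0.615% of all genes, and the same limit applies to it.

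In ouro1.S, a gene first described in Xenopus tail regression, pool 2 lay far below pool 1 at the tip and in the middle, with 9.4 and 1.49 CPM in distal, 24.7 and 3.58 CPM in medial and 68.3 and 73.1 CPM in proximal. apoe.L, which encodes a lipid carrier made by macrophages among other cells, was likewise lower in pool 2 of those segments, with 13.3 and 5.17 CPM in distal, 42.5 and 17.9 CPM in medial and 89.2 and 88.8 CPM in proximal. coch.L had 0 and 0.0709 CPM in distal, 0.211 and 0.0351 CPM in medial and 1.39 and 5.24 CPM in proximal, and its proximal value rests mostly on pool 2.

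A difference between pool 2 and pool 1 shared by the segments was tested in a fit with segment as covariate. This test does not measure how far the pools of a single segment lie apart. For ouro1.S, whose pools differed widely in distal and medial, it gave an unadjusted p of 0.292 (edgeR). No member passed an adjusted p of 0.05 in edgeR, where 0.0815% of all genes did. At an unadjusted p under 0.05 there were 15 members (11.4%), against 9.22% of all genes. DESeq2 called 1 member, ctsh.L, whose log2 fold change of pool 2 over pool 1 was -0.77 (SE 0.13, edgeR adjusted p = 0.0585). The other members with a low unadjusted p included ctsl.L, gzmh.S, ogn.L, fgfbp2.L and ecrg4.L, lower in pool 2, and spon1.S, matn4.L, matn4.S, meis2.S and pkdcc.2.L, higher in pool 2. Without the filter on low counts 7 members were called.

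Just inside the threshold on proximal level stood gdnf.S, mkx.S and coch.L, at 3.26, 3.28 and 3.31 CPM, and just outside it pax7.L, slitrk3.S and sema6b.S, at 2.94, 2.89 and 2.88 CPM. On the inner step tspan18.L, ctsl.L and adamts3.S qualified with a medial level of 49.3%, 49.2% and 49.2% of proximal, whereas irx2.S, tnfaip2.L and plod2.S missed with 50.2%, 50.4% and 51.8%. On the outer step bmf.L and rn7sk qualified with a distal level of 49.3% and 49.0% of medial, whereas crabp1.S, cntfr.L and XB5733233.L missed with 50.7%, 51.0% and 51.3%.

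Both copies of 14 genes were members, among them dhrs3, ebf2, irx3, irx5, matn4, mmp23b, nfix, pkdcc.2, rarb, ror1, six2, smoc1 and thbs2. For 35 members the other copy has no name in the authors' deposited table. For 67 members the other copy is named but is not a member, which gives 68 further gene IDs because isl1.S stands under 2 of them. Each of these misses at least 1 threshold by definition, but the rule did not choose them for their gradient, so they were tested. Between near-identical copies the authors' counting leaves out fragments that map to both.

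Of the 68 other copies, 61 (89.7%) were called lower in distal than in proximal with edgeR, against 48% of the named genes that are not members. A further 5 were called higher in distal, as were 40.1% of those named genes, and 2, ouro1.L and sncg.S, were not called. The median log2 fold change of the 68 was -2.61, which did not move when ccl21.S, with no distal fragment, was set to its bound (at least 11.6-fold lower). Leaving out 1 library at a time ended 10 of the 61 calls and 2 of the 5. Between distal and medial 39 copies (57.4%) were called lower, against 40.1% of the same named genes, and 5 higher, against 36.3%. Between medial and proximal 42 (61.8%) were called lower, against 15.2%, and 1 higher, against 10%; without proximal pool 2 the count of copies called lower on this inner step was 23.

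**Figure D4:**
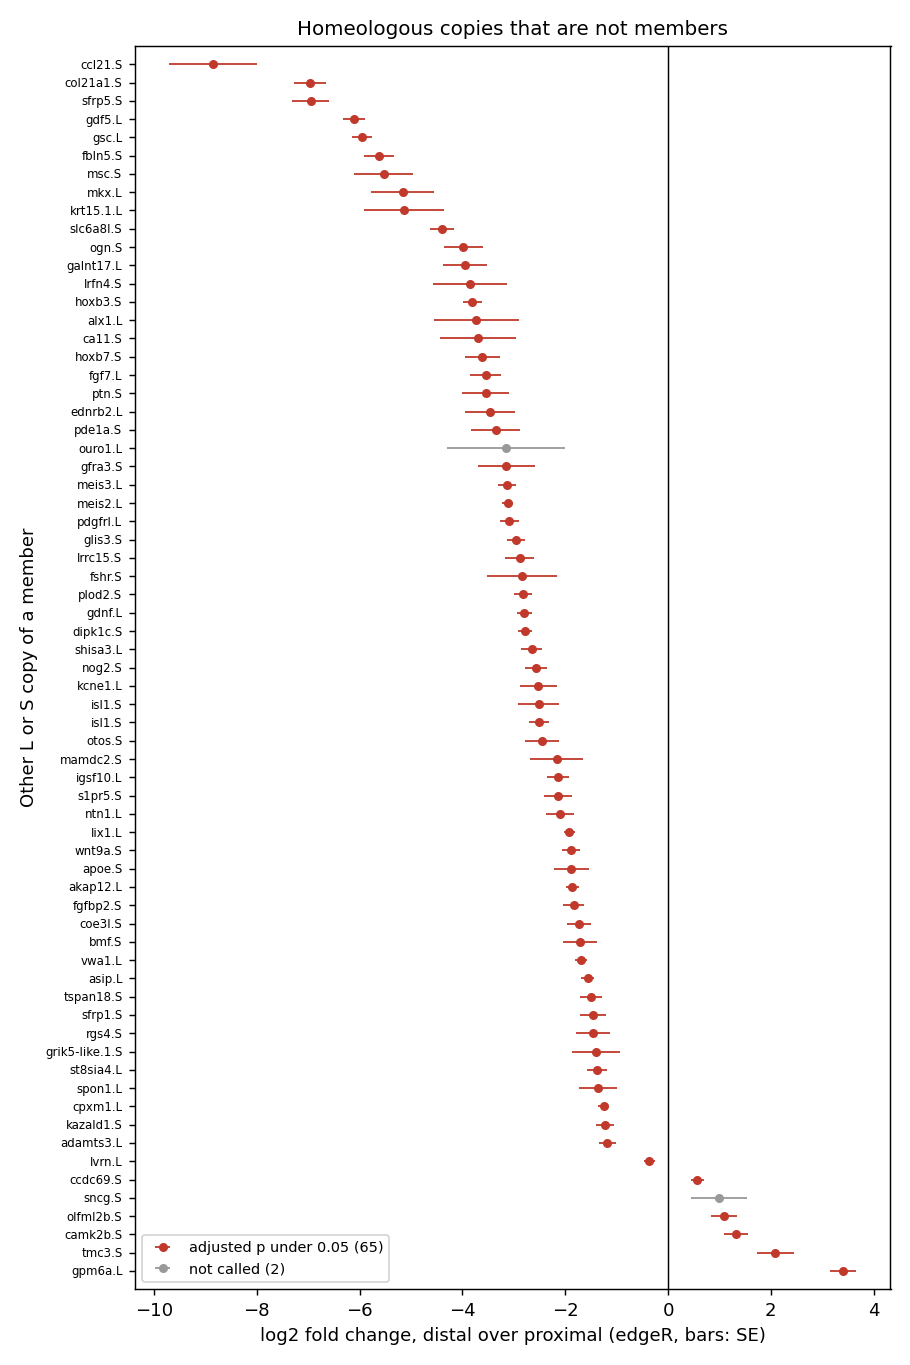
Log2 fold change of distal over proximal (edgeR, with SE) for 67 of the 68 named L or S copies of members that are not members themselves; negative values mean lower in distal. Points left of 0 are lower in distal, 65 points are called (red) and 2 are not (grey), and gpm6a.L stands farthest to the right at 3.40.

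The share of named genes called lower at both steps was not computed, so the next count has no background beside it. A total of 23 other copies were called lower at both steps. Without proximal pool 2 this count was 12, and it was 15 without distal pool 1 and 14 without distal pool 2. meis2.L was one of them and was more abundant than its member copy meis2.S, with 27.9 and 32.4 CPM in distal, 56.5 and 59.4 CPM in medial and 235 and 262 CPM in proximal. Its log2 fold change was -3.12 (SE 0.11) for distal over proximal (edgeR adjusted p = 5.61e-09) and -1.07 for distal over medial (adjusted p = 1.94e-05), close to the threshold of the rule. meis3.L had 4.77 and 3.05 CPM in distal, 7.23 and 6.85 CPM in medial and 35 and 32.9 CPM in proximal, with a log2 fold change of -3.14 (adjusted p = 1.85e-07). hoxb3.S had 1.39 and 1.56 CPM in distal, 2.21 and 2.18 CPM in medial and 17.6 and 21.2 CPM in proximal, with -3.81 (adjusted p = 7.01e-08), and its outer step kept its call only when proximal pool 1 was the library left out.

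Other copies had most or all of the difference at 1 boundary. gsc.L had 1.91 and 1.49 CPM in distal, 2.53 and 3.93 CPM in medial and 96.1 and 109 CPM in proximal, so that it fell on the inner step by a log2 fold change of -4.94 (adjusted p = 6.46e-08), while its outer step of -1.01 (adjusted p = 0.0119) lost its call without distal pool 1, without distal pool 2 and without medial pool 2. col21a1.S had 0.13 and 0.354 CPM in distal, 0.0702 and 0.281 CPM in medial and 25.5 and 27.2 CPM in proximal, with an inner step of -7.15 (adjusted p = 1.32e-07) and an outer step of 0.18 that was not called (adjusted p = 0.88). The reverse held for gdf5.L, with 0.477 and 0.425 CPM in distal, 23.4 and 29.9 CPM in medial and 29.4 and 31.5 CPM in proximal. Its outer step was -5.96 (adjusted p = 2.08e-08) and its inner step of -0.15 was not called (adjusted p = 0.615). sfrp5.S had a similar profile, with 0.13 and 0 CPM in distal, 10.1 and 9.73 CPM in medial and 9.89 and 10.3 CPM in proximal. Of the 68 copies, 22 missed the outer threshold alone, 14 the inner one alone, 11 the proximal level alone, and 21 more than 1 threshold.

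The opposite direction was called for 5 copies. gpm6a.L, a membrane glycoprotein gene of neurons, had 43.1 and 42.5 CPM in distal, 3.93 and 1.93 CPM in medial and 4.25 and 3.66 CPM in proximal, a log2 fold change of 3.40 (SE 0.25) for distal over proximal (adjusted p = 3.14e-05), whereas its member copy gpm6a.S had 0.52 and 0.638 CPM in distal, 2.6 and 2.81 CPM in medial and 10.1 and 8.09 CPM in proximal. tmc3.S and camk2b.S were higher in distal by 2.09 (adjusted p = 0.00126) and 1.32 (adjusted p = 0.0014). The calls for olfml2b.S and ccdc69.S were lost without proximal pool 2 and without distal pool 1 in that order. Whether the gradients of the copies of a gene differ was not tested in a model over both copies.

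The wider TALE and Iroquois family was followed by a list of 18 genes, of which 12 were named, in 20 copies. A copy is counted only if the authors' deposited table names it, so each list is set beside the named genes that are not members, of which 48% were called lower and 40.1% higher in distal than in proximal. Distal was called lower than proximal for all 8 members on the list, which the rule chose for that direction. Of the 12 copies that are not members, 10 were called lower and 2 higher, with a median log2 fold change of -2.02, against -0.33 for the named genes that are not members. The lower ones included meis1.S, with 10.2 and 9.28 CPM in distal, 17.7 and 18.8 CPM in medial and 85 and 91.2 CPM in proximal and a log2 fold change of -3.24 (edgeR adjusted p = 4.66e-09), and irx2.L, with 2.04 and 2.48 CPM in distal, 3.86 and 3.27 CPM in medial and 16.8 and 16.8 CPM in proximal and -2.98 (adjusted p = 3.39e-07). The 2 copies that were higher in distal belong to pknox2, another TALE gene: pknox2.L had 68.1 and 59.2 CPM in distal, 13.1 and 11.6 CPM in medial and 2.96 and 2.93 CPM in proximal, and pknox2.S had 39.1 and 38.8 CPM in distal, 5.37 and 6.22 CPM in medial and 1.85 and 1.16 CPM in proximal. Calls on the inner step were not particular to this family. In lists described below, 13 of 21 cartilage, 13 of 27 tendon (1 higher) and 8 of 14 endothelial copies that are not members were called lower. The count was 0 of 17 for epidermal and 0 of 23 (3 higher) for red blood cell copies. Of the 12 TALE and Iroquois copies that are not members, 10 were called lower in medial than in proximal and 2 higher, against 15.2% and 10% of the named genes. Over the 20 copies the count called lower on this step was 18, and 14 to 17 with 1 library left out.

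The retinoic acid pathway list held 15 named genes in 27 copies and went both ways. Of the 23 copies that are not members, 11 (47.8%) were called lower and 7 (30.4%) higher in distal than in proximal, against 48% and 40.1% of the named genes that are not members, and their median log2 fold change was -0.24. The lower ones included the synthesis genes aldh1a2.L, with 16.8 and 15.9 CPM in distal, 8.53 and 7.02 CPM in medial and 96.2 and 107 CPM in proximal (-2.70, edgeR adjusted p = 2.43e-08), and rdh10.L (-2.08, adjusted p = 6.64e-08). aldh1a2.L was lowest in medial, so it did not share the stepwise shape of rarb and dhrs3. The higher ones included both copies of the degrading enzyme gene cyp26b1, by 1.95 for the L copy (adjusted p = 8.67e-08) and 2.92 for the S copy (adjusted p = 8.44e-09). On the inner step 12 of the 23 copies were called lower and 5 higher, against 15.2% and 10% of the named genes. Between distal and proximal aldh1a2.S was called higher, the opposite of aldh1a2.L, with log2 fold changes of 0.53 to 1.02 with 1 library left out. cyp26c1.S was also called higher, and rarg.S lower. The calls for aldh1a2.S, rarg.S and cyp26c1.S were lost without 1 library (distal pool 2 for aldh1a2.S, either distal pool for rarg.S, proximal pool 2 for cyp26c1.S).

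Of Hox genes of paralog groups 1 to 10, 34 copies were named. Of the 32 that are not members, 17 (53.1%) were called lower and 14 (43.8%) higher in distal than in proximal, near the 48% and 40.1% of the named genes. Between medial and proximal 15 of the 32 were called lower and 12 higher, against 15.2% and 10% of the named genes. All 13 named copies of HoxB genes were called lower in distal than in proximal and in medial than in proximal. Of the 13, 4 were called lower in distal than in medial, and 2 are members that the rule chose for these directions. The shares of named genes that are not members called lower were 48%, 15.2% and 40.1% for these comparisons in that order. The outer-step count of HoxB copies was thus not above its share. Without proximal pool 2 the count was 11 between distal and proximal and 7 between medial and proximal. Between distal and medial 1 HoxB call was left without distal pool 1, and 2 were left without distal pool 2, without medial pool 1 or without medial pool 2. Of the list of other proximal and girdle regulators, 17 of the 26 copies that are not members (65.4%) were called lower and 7 (26.9%) higher in distal than in proximal. shox2.S, a stylopod gene in mice, had 5.42 and 4.04 CPM in distal, 76.9 and 73.1 CPM in medial and 139 and 149 CPM in proximal and missed the rule on the inner step. osr1.L had 1.82 and 0.921 CPM in distal, 76.5 and 81.7 CPM in medial and 49.8 and 56.4 CPM in proximal, highest in medial. Among Wnt, BMP, FGF and hedgehog ligands and antagonists, 36 of the 67 copies that are not members (53.7%) were called lower and 28 (41.8%) higher in distal, again near the shares of the named genes.

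Marker lists of cell types were counted in the same way, beside the 48% of named genes that are not members called lower and the 40.1% called higher in distal than in proximal. For calls at both steps no such share was computed, so nothing is read from those counts. Muscle progenitor and myogenic regulators were called lower in distal than in proximal for 26 of 27 copies, or 25 of the 26 that are not members. At both steps 9 of the 27 copies were called lower. Their summed level was 179.9 to 219 CPM in distal, 358 to 391 CPM in medial and 440.4 to 443 CPM in proximal. msc.L was their only member, and myog.L, myog.S and pax7.L had no distal fragment. Muscle contractile genes, with no member, were called lower for 20 of the 25 copies tested, and at both steps for 2 of them. Cartilage condensation genes were called lower for 21 of 23 copies, or 19 of the 21 that are not members, and at both steps for 11 of the 23. Their summed level was 1459 to 1465 CPM in distal, 2011 to 2218 CPM in medial and 2684 to 3199 CPM in proximal, and both copies of matn4 were members. Tendon and connective tissue genes, with ogn.L as a member, were called lower for 26 of the 28 copies tested (25 of the 27 that are not members). At both steps 5 of the 28 were called lower. Endothelial genes, with vwf.L as a member, were called lower for 14 of 15 copies (13 of the 14 that are not members), and at both steps for 4 of the 15.

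Other marker lists had another shape. Schwann cell and neural crest genes, with gfra3.L as a member, were called lower for 15 of 18 copies (14 of the 17 that are not members) and higher for 3. Their median log2 fold change for distal over proximal was -3.72, yet their summed level was highest in distal. It was 427 to 444 CPM in distal, 246 to 251 CPM in medial and 301 to 350.1 CPM in proximal, so the sum does not show the direction of most copies. Red blood cell genes, with no member, were called lower in distal for 23 of 23 copies. Their summed level peaked in medial, with 1437 to 2848 CPM in distal, 57829 to 68049 CPM in medial and 32463 to 45828 CPM in proximal. Only 3 of the 23 copies were called higher in medial than in proximal. The 4 leukocyte copies were all called lower in distal than in proximal, with 22.4 to 27.3 CPM in distal, 19.1 to 25 CPM in medial and 47.7 to 48.3 CPM in proximal. Epidermal genes were called higher in distal for 11 of 17 copies and lower for 2, neurons were represented by only 3 copies, and smooth muscle and perivascular genes were called lower for 6 of 9 copies. All 3 mesothelium copies tested were called higher in distal. Leaving out 1 library at a time ended calls between distal and proximal for 4 of the 26 called myogenic copies, 9 of the 20 contractile, 5 of the 21 cartilage, 3 of the 28 tendon, 3 of the 15 endothelial, 2 of the 18 Schwann cell, 2 of the 23 red blood cell, 2 of the 4 leukocyte, 10 of the 13 epidermal, 3 of the 8 perivascular and 3 of the 3 mesothelium copies. The count of epidermal copies called higher in distal was 2 to 4 without a distal or a proximal pool and 15 without a medial pool, and that called lower was 1 without distal pool 1 and without proximal pool 2. Contractile copies called lower numbered 13 without proximal pool 2, leukocyte copies called lower numbered 2 without distal pool 2, and mesothelium copies called higher numbered 0 without proximal pool 1, 0 without proximal pool 2 and 1 without distal pool 1. No listed copy lacked fragments in all proximal libraries. The part of these cell types in the gradients of the members was not tested.

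**Figure D5:**
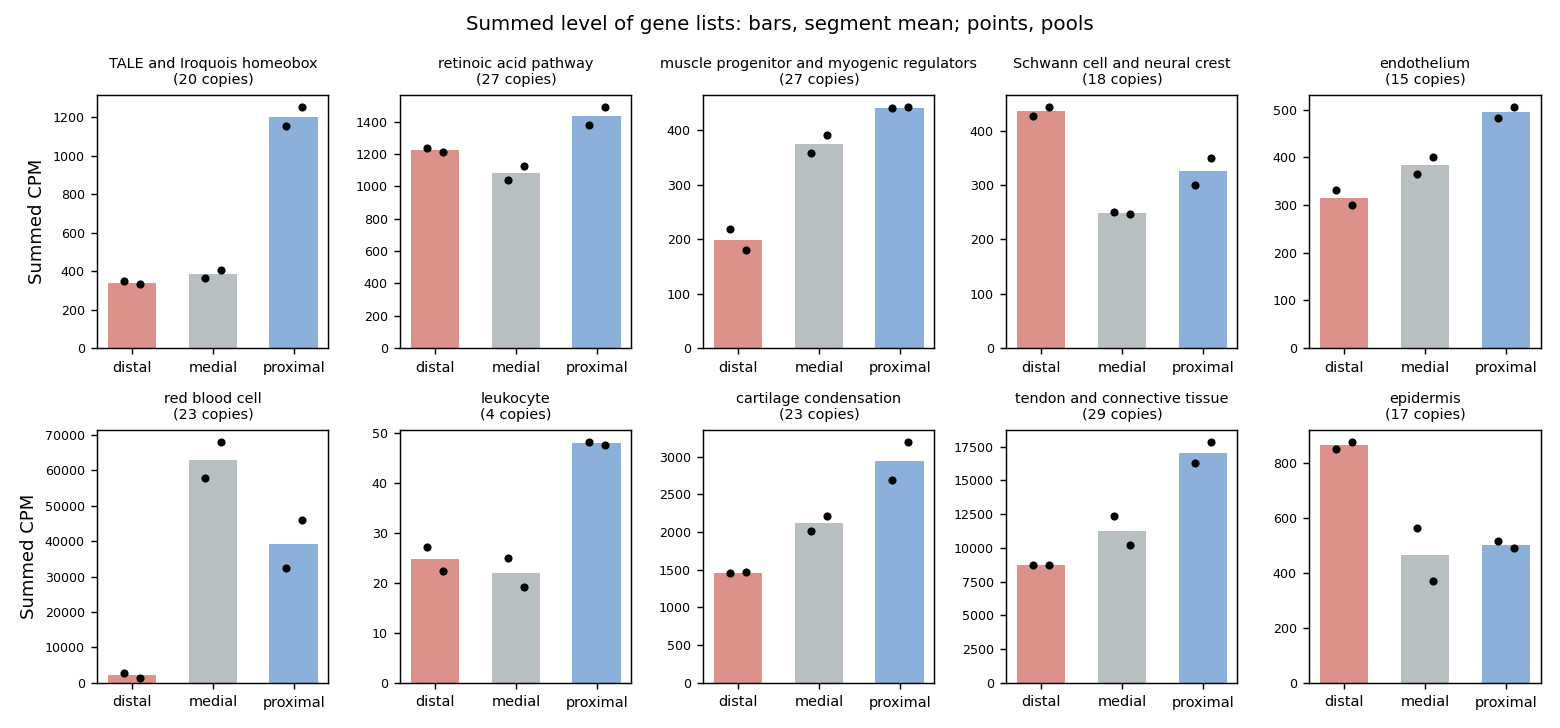
Summed CPM of 10 gene lists in the distal, medial and proximal segments (bars, mean of 2 pools; points, pools), each panel on its own linear axis from 0. The myogenic, endothelial, cartilage and tendon sums increase toward proximal, whereas the sums of red blood cell genes peak in medial and those of Schwann cell and epidermal genes are highest in distal. Most Schwann cell copies, 15 of 18, were called lower in distal than in proximal, against the direction of their sum.

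A few members lie near each other in the genome. irx3.S and irx5.S are 578 kb apart on chromosome 4S with 3 gene IDs between them. On 9_10L, hoxb3.L is listed from 3469466 to 3526816, which ends 0.597 kb before hoxb7.L. They are not direct neighbours, because 4 gene IDs begin between the first listed positions of hoxb3.L and hoxb7.L. matn4.L lies 247 kb beyond hoxb7.L. On 9_10S, matn4.S and gdf5.S are 123 kb apart. In all, 6 members lie on unplaced scaffolds. L copies made up 61.1% of the members with a suffix, against 58.3% of the named gene IDs that could be chosen. The exons of 4 members (3.03%) overlap another gene ID, against 9.89% of those gene IDs, and the median exonic length was 3128 bp in members and 3293 bp among all gene IDs that could be chosen by name.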

How the data were processed

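Per the labels' protocols, column-purified, DNase-treated total RNA (1 ug) went into Illumina TruSeq libraries. Tools named in the submitters' processing notes are bcl2fastq, Trimmomatic 0.39, HISAT2 2.2.1, SAMtools 1.10, featureCounts 2.0.1 and DESeq2 1.30.1. Genome build and annotation are not given in the sources used here. The deposited table holds raw fragment counts per gene ID, counted in paired-end mode with default settings per the file headers, so strand was ignored and fragments with several mapping places, or on several genes, were left out. Gene lengths in base pairs are other values deposited by the authors in the same table. The authors' table of calls, used here for names and for the number of members listed, gives a log2 fold change and a p-value per gene and comparison, beside a mean signal over libraries and a test score, per the file headers.

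CPM is the count over the column total, as in the rule. The filter filterByExpr, grouped by segment, used a minimum count of 10 and a minimum total of 15, and 27007 of the 51061 gene IDs passed. The test was that of edgeR 4.0.16 under R 4.3.3, with TMM scaling (robust quasi-likelihood fit, 3 residual degrees of freedom, Benjamini-Hochberg adjustment, threshold 0.05). The common biological coefficient of variation was 0.0948. The SE of a log2 fold change is its size divided by the square root of F. TPM was computed per library with the deposited lengths and averaged over the pools of a segment. The fit was checked on simulated counts. Count ratios for members with 1 to 3 distal fragments carry exact 95% intervals, and the floor of detection is 3 counts per library. Python 3.11.15 with pandas 2.3.3, scipy 1.17.1 and matplotlib 3.10.9 was used for summaries and figures.

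Pools are biological replicates per the labels, 2 per segment. Members, gene lists and tests were chosen with earlier results of these data known, and roles were given by hand after the members were known. The genes named are the 12 members with the highest proximal level, the 12 with the largest fall, the 8 with the most alike and the 8 with the most different steps, the 3 on each side of each threshold, members on a gene list, and their other copies. Some genes that this rule names are not reported here. The further examples of each role were chosen after their values were seen. Other settings were RLE factors, no filter, at least 10 counts in every library, a non-robust fit, DESeq2 1.42.0, the replicate block, leaving out each library, and other scalings and thresholds of the rule.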

Additional observations from a re-analysis of the deposited data

How the results depend on the processing

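With at least 10 counts in every library only 74 members and 40 other copies could be tested. Members called lower then numbered 72 (distal against proximal), 70 (outer step) and 69 (inner step), and other copies 35, 24 and 25. Leaving out 1 library at a time gave 128 to 130 members between distal and proximal, 103 to 122 on the outer step and 95 to 126 on the inner step, and 52 to 61, 27 to 37 and 23 to 48 other copies. The lowest of these, 23 copies on the inner step, came without proximal pool 2, the deepest library; the cause was not tested. RLE factors, DESeq2, a non-robust fit and no filter kept these counts within 1.5 times. For pool 2 against pool 1, no filter gave 7 members and DESeq2 gave 1.

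By its own thresholds the rule finds 71 members at a proximal level of at least 10 CPM, 45 with 3-fold steps, 320 with 1.5-fold steps and 73 with both steps in every pool, and 121 to 140 when 1 library is left out. CPM scaled with TMM factors gave 131, of which 124 are shared, and TPM gave 109, of which 96 are shared.

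The labels number the pools of each segment, and the sample titles give same-numbered pools of all segments the same colour, Black or Red. Same-numbered pools deviated together only weakly (correlations of 0.025 for distal with proximal, 0.054 for distal with medial and 0.203 for medial with proximal). These correlations rest on few pools, and whether pools of the same colour share limbs or a batch was not tested. The main fit did not pair them, whereas the replicate block did. The replicate block gave 130, 126 and 128 members and 61, 40 and 46 other copies for the same 3 comparisons. The median log2 fold change of the other copies kept its sign in these comparisons under every setting. That of the members did so too, but the rule fixed its direction in advance, so nothing is read from it. Depth limits the distal levels: 3 counts are 0.13 to 0.213 CPM there.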

Other observations

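The gene IDs that rise outward under the mirrored rule, 68 in number, had a median distal level of 23.0 CPM and a highest distal level of 843 CPM. Their median log2 fold change for distal over proximal was 4.34. They are fewer than the 132 members described above, which had a median proximal level of 11.7 CPM and a highest proximal level of 445 CPM. Both sets were chosen by their means, so these values are a description.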
